A study of Homo sapiens with 24 samples.

Results

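NF-kB is a family of dimeric transcription factors held in the cytoplasm by inhibitor proteins until a signal, such as a cytokine or viral RNA, releases them. The 9 genes described here are NF-kB targets and genes of the pathway itself: ICAM1, BIRC3, TNFAIP2, TNFAIP3, NFKBIA, NFKB1, NFKB2, RELB and RELA. They were represented by 46 of the 62976 array features, each feature being 1 probe position, and by 9 of the 20061 genes that could be named. ICAM1, NFKB1 and NFKBIA had 10 features each, RELA had 11, and each of the other 5 genes had 1. The genes were chosen by their place in the pathway and selected on measured values of these arrays, the upward steps of the ICAM1 and BIRC3 levels between the V21, V79 and V79_8x groups. Differences of ICAM1 and BIRC3 among those 3 groups are therefore given as a description, with no test.

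The arrays measured total RNA of SH-SY5Y, a human neuroblastoma cell line with noradrenergic neuronal features, in 4 groups of 6 biological replicates. Every culture received the plasmid pCAGIG, and RNA was taken 24 h later. V79_8x is labelled as overexpressing the FMR1 5′ untranslated region (5′UTR) with a tract of 79 CGG repeats, a length in the premutation range of fragile X disorders. V79 received that 5′UTR with 79 repeats, V21 received it with 21, the length class of unaffected people, and Mock received the empty plasmid. The labels do not say what 8x counts, and the names of the arrays have V80x2 for V79_8x and V80 for V79. The experiment letters B to G in the titles serve below to name the arrays of a group.

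In resting cells the inhibitor IkB-alpha, encoded by NFKBIA, masks dimers of RELA and the NFKB1 product p50. Kinases of the IKK complex mark it for destruction, the dimers enter the nucleus, and they switch on adhesion, survival and inflammatory genes together with their own inhibitors, NFKBIA and TNFAIP3, so that the response ends itself. A second branch runs through RELB and the processed NFKB2 product p52. ICAM1 and BIRC3 are textbook targets of the pathway, and TNFAIP2 and TNFAIP3 carry the name of the cytokine TNF because they were found as genes it induces.

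The binding site that NF-kB dimers recognise is a short, nearly symmetric run of bases. It is shown here for the 3 genes with higher levels in V79_8x and for the inhibitor genes NFKBIA and TNFAIP3. Of the 9 genes, 8 had RefSeq promoter windows of build GRCh38.p14, which span 250 bases before to 50 bases after a start site. The sequences come from these windows. They are written 5′ to 3′ on the gene's strand, and capitals mark a match to GGNNNTTCC on either strand.
ICAM1, chr19:10270924-10270952, plus strand: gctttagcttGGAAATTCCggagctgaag
BIRC3, chr11:102317275-102317303, plus strand: tttgggtcatGGAAATCCCcgagtgggtt
TNFAIP2, chr14:103123354-103123382, plus strand: ctccgcccgcGGGTTTTCCgcggttgcgg
NFKBIA, chr14:35404812-35404840, minus strand: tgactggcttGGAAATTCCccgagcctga
TNFAIP3, chr6:137867194-137867222, plus strand: aaagtcccgtGGAAATCCCcgggcctaca

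The match shown begins 186 bases before the window's start site in ICAM1, 199 in BIRC3, 97 in TNFAIP2, 81 in NFKBIA and 55 in TNFAIP3. In TNFAIP2 and TNFAIP3 that site and the match lie inside the annotated gene, which begins at base 103121469 and 137866349. The ICAM1 and NFKBIA matches shown have the same 9 letters, and so do the BIRC3 and TNFAIP3 matches shown, which lie on the opposite strand. NFKBIA and TNFAIP3 each held a further match with other letters, which begins 242 and 67 bases before the start site. Of the 8 genes with a window, 7 held such a match, RELA being the exception, while 23.5% of all 27305 genes in the table and 20.1% of its 35116 windows did. The longer NF-kB consensus decamer, which overlaps the 9-letter pattern, was found in windows of 5 of the 8 genes, against 13.3% of all genes. ICAM1, TNFAIP2 and RELA held none. The genes were chosen as NF-kB targets and genes of the pathway, so these shares do not test the set. A match is a run of letters and does not show that a factor binds there.

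The values are the authors' deposited log2 intensities, so that a difference of 1 is a 2-fold difference of intensity, and all 24 arrays had been given the same distribution before deposit. Where a gene had several features, the feature with the highest mean over the 24 arrays stands for it. Differences were tested with limma in 1 fit of the 4 groups, with p adjusted by the Benjamini-Hochberg method over 15045 genes, and a gene is said to have risen only where that adjusted p was under 0.05. All 9 genes passed the filter that left out the dimmest 25% of genes, those with a mean of 6.43 or less. All 11 neuroblastoma markers with a feature were also above that limit, led by STMN2 at a mean of 16.38. Of them 1, ISL1, differed between V79_8x and Mock (log2 difference -0.24, limma adjusted p = 0.0232), where 331 of all tested genes passed in either direction. ISL1 was also lower than Mock, without passing, in V79 (-0.27, limma adjusted p = 0.831) and in V21 (-0.14, adjusted p = 0.782). The 8 endothelial markers averaged between 6.47 and 6.81 on every array and 4 of the 8 were tested. Markers of mesenchymal cells averaged 9.57 in V79_8x, 9.59 in V79, 9.60 in V21 and 9.58 in Mock, and 0 of the 9 tested passed between V79_8x and Mock. The 8 myeloid and lymphoid markers averaged 7.84 in V79_8x, 7.89 in V79, 7.92 in V21 and 7.89 in Mock, led by CD79A at a mean of 11.38 and CD68 at 10.41, while PTPRC stayed between 6.55 and 7.25, and 0 of the 8 passed between V79_8x and Mock. The arrays V79 B, V21 B, V21 C and Mock D stood apart from the others of their groups in several of the 9 genes. Results that rest on them are given with and without them. No fixed rule picked these arrays, and none of them is in V79_8x. Leaving them out thus changes only the other groups and is no independent check.

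ICAM1, BIRC3 and TNFAIP2 rose in V79_8x against Mock, and the other 6 genes did not pass the test. ICAM1 was 1.65-fold, BIRC3 1.47-fold and TNFAIP2 1.30-fold higher, each in all 6 experiments. The 3 genes that rose compare with a background of 1.71% of all tested genes. Their groups did not overlap, which held for 2.17% of tested genes. The V79_8x arrays in these tests are the ones on which the set was chosen, through the levels of ICAM1 and BIRC3. The tests of these genes, and the comparisons with both shares, therefore lean on that choice and are not independent support. Since the RNA came from whole cultures after transfection, more responding cells and more RNA in each cell cannot be told apart.

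ICAM1 encodes a surface adhesion molecule that leukocytes bind through integrins. The ICAM1 level ranged between 11.10 and 11.58 in V79_8x, with a median of 11.25. It lay between 10.81 and 11.06 in V79 (median 10.89), between 10.12 and 10.70 in V21 (median 10.45) and between 10.44 and 10.66 in Mock (median 10.53). On this brightest feature all 6 V79_8x arrays were above all 6 V79 arrays. All V79 arrays were above all V21 and all Mock arrays there, while V21 and Mock overlapped. Against Mock, the difference of ICAM1 was 0.72 ± 0.08 in V79_8x (log2 ± SE, limma adjusted p = 1.89e-06).

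The step of ICAM1 had 2 parts of similar size. V79_8x was higher than V79 by 0.36 on the log2 scale, or 1.28-fold, and V79 was higher than V21 by 0.47, or 1.39-fold. Both differences were positive in 6 of 6 experiments, with a range over experiments of 0.23 to 0.52 for the first and 0.11 to 0.73 for the second. V79 was also higher than Mock by 0.36 ± 0.08, in 6 of 6 experiments and with no overlap, which held for 0.0798% of tested genes. That difference did not pass limma's test after adjustment over all genes (adjusted p = 0.831, unadjusted p = 0.000225). It placed ICAM1 at rank 23 of 15045 by size of rise, in a comparison where 0.00665% of genes passed the test. The V79 arrays are also among those on which ICAM1 was chosen, so this rank is a description.

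The 10 ICAM1 features gave like values. Against Mock, V79_8x was higher by 0.69 to 0.75 over the 10 features, and all 10 passed in the fit over features, with adjusted p between 1.49e-06 and 2.46e-05 (limma, 27190 features). For V79 against Mock the 10 features gave 0.34 to 0.39, and 9 of the 10 had groups without overlap. Groups were without overlap in 8 of the 10 for V79_8x against V79 and in 8 of the 10 for V79 against V21. The features share their RNA samples, and the files do not give their probe sequences, so they do not add replicates.

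BIRC3 encodes cIAP2, a ubiquitin ligase at TNF receptors that protects cells from apoptosis. The BIRC3 level ranged between 8.12 and 8.48 in V79_8x, with a median of 8.33. It lay between 7.70 and 8.00 in V79 (median 7.91), between 7.57 and 7.92 in V21 (median 7.83) and between 7.52 and 7.87 in Mock (median 7.81). All V79_8x arrays lay above every other array, and the other 3 groups overlapped. V79_8x was higher than Mock by 0.55 ± 0.07 (limma adjusted p = 1.49e-05).

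BIRC3 thus had a single step, where ICAM1 had 2. V79_8x was higher than V79 by 0.44 on the log2 scale, or 1.35-fold, in 6 of 6 experiments. V79 exceeded V21 by 0.08, or 1.06-fold, in 4 of 6 experiments, and exceeded Mock by 0.12 ± 0.07 in 5 of 6 (limma adjusted p = 1). No difference between the 2 genes' patterns was tested. By brightest feature, BIRC3 and ICAM1 were the genes of the set without overlap between V79_8x and V79, a state that 1.6% of tested genes shared. ICAM1 alone did not overlap between V79 and V21, as 0.0465% of tested genes did. Both genes were chosen on their steps between these groups, so the shares are a description and no support.

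TNFAIP2 encodes a cytosolic protein linked to membrane extensions. The TNFAIP2 level ranged between 10.38 and 10.70 in V79_8x, with a median of 10.60. It lay between 10.25 and 10.43 in V79 (median 10.35), between 9.96 and 10.29 in V21 (median 10.16) and between 10.03 and 10.29 in Mock (median 10.23). The V79_8x arrays were all above V21 and Mock, and 5 of the 6 were above all V79 arrays, the exception being V79_8x G. TNFAIP2 was higher in V79_8x than in Mock by 0.38 ± 0.07 (limma adjusted p = 0.000915), and higher than in V21 by 0.45 ± 0.07 (adjusted p = 8.29e-05), in 6 of 6 experiments each.

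TNFAIP2 was the 1 gene that rose among the 7 tested between V79_8x and V21, where 2.19% of all tested genes rose. TNFAIP2 also did not overlap between V79_8x and V21, which held for 2.04% of tested genes. ICAM1 and BIRC3 did not overlap there either, but they were chosen on that step and are not set against this share. Against V79, TNFAIP2 was higher in V79_8x by 0.22 ± 0.07 in 6 of 6 experiments and did not pass (adjusted p = 0.175). It passed there without the 4 arrays that stand apart (0.22, adjusted p = 0.0449). V79 was above V21 by 0.23 ± 0.07 in 6 of 6 experiments (adjusted p = 0.832) and above Mock by 0.15 ± 0.07 in 6 of 6 (adjusted p = 1).

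**Figure D1:**
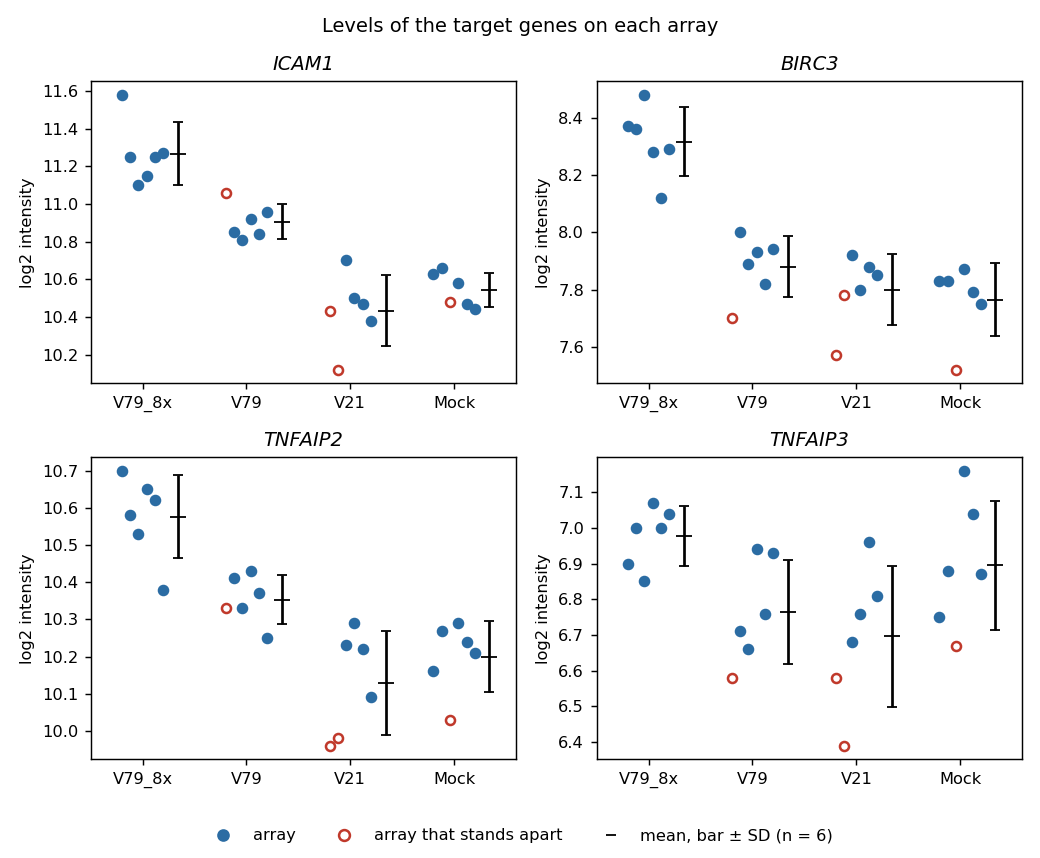
Levels of ICAM1, BIRC3, TNFAIP2 and TNFAIP3 (log2 intensity) on each array of V79_8x, V79, V21 and Mock, with the mean and SD of 6 arrays as bars. Open circles are the 4 arrays that stand apart. ICAM1 steps at V79 and again at V79_8x, BIRC3 only at V79_8x, and the groups of TNFAIP3 overlap.

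The 2 inhibitor genes did not pass in any comparison. NFKBIA, the gene of IkB-alpha, ranged between 12.85 and 13.17 in V79_8x, with a median of 13.06. It lay between 12.55 and 12.98 in V79 (median 12.93), between 12.26 and 12.92 in V21 (median 12.68) and between 12.26 and 12.98 in Mock (median 12.81). On this brightest feature the V79_8x arrays were at the upper end and overlapped each other group. V79_8x exceeded Mock by 0.30 ± 0.12 in 6 of 6 experiments (limma adjusted p = 0.308), V79 by 0.21 ± 0.12 in 6 of 6 (adjusted p = 0.98) and V21 by 0.40 ± 0.12 in 5 of 6 (adjusted p = 0.0618).

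The NFKBIA features fell on both sides of the threshold against V21. Its 10 features gave V79_8x higher by 0.39 to 0.44, and 7 of the 10 passed in the fit over features, with adjusted p between 0.0161 and 0.0646 (limma). V79_8x was higher without overlap in 5 of the 10 features against V21, in 2 against V79 and in 3 against Mock. V21 B and V21 C held the lowest V21 values, 12.26 and 12.48. Without the 4 arrays that stand apart, the NFKBIA difference from V21 was 0.26 (adjusted p = 0.0522) and from Mock 0.20 (adjusted p = 0.109).

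TNFAIP3 encodes A20, a ubiquitin-editing enzyme that shuts off signalling at TNF and Toll-like receptors. The TNFAIP3 level ranged between 6.85 and 7.07 in V79_8x, with a median of 7.0. It lay between 6.58 and 6.94 in V79 (median 6.74), between 6.39 and 6.96 in V21 (median 6.72) and between 6.67 and 7.16 in Mock (median 6.88). These levels are close to the dim limit of 6.43, where intensities can understate a difference, and the highest single array was a Mock array. V79_8x was above V79 by 0.21 ± 0.09 in 6 of 6 experiments (limma adjusted p = 0.744) and above V21 by 0.28 ± 0.09 in 6 of 6 (adjusted p = 0.106). With the experiment letter as a replicate block, the second difference passed (adjusted p = 0.0263).

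The TNFAIP3 mean in V79_8x was above Mock by 0.08 ± 0.09, in 4 of 6 experiments (limma adjusted p = 0.951). V79 lay below Mock by 0.13 ± 0.09 and was lower in 5 of 6 experiments (adjusted p = 1). V21 lay below Mock by 0.20 ± 0.09, again lower in 5 of 6 experiments (adjusted p = 0.782).

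**Figure D2:**
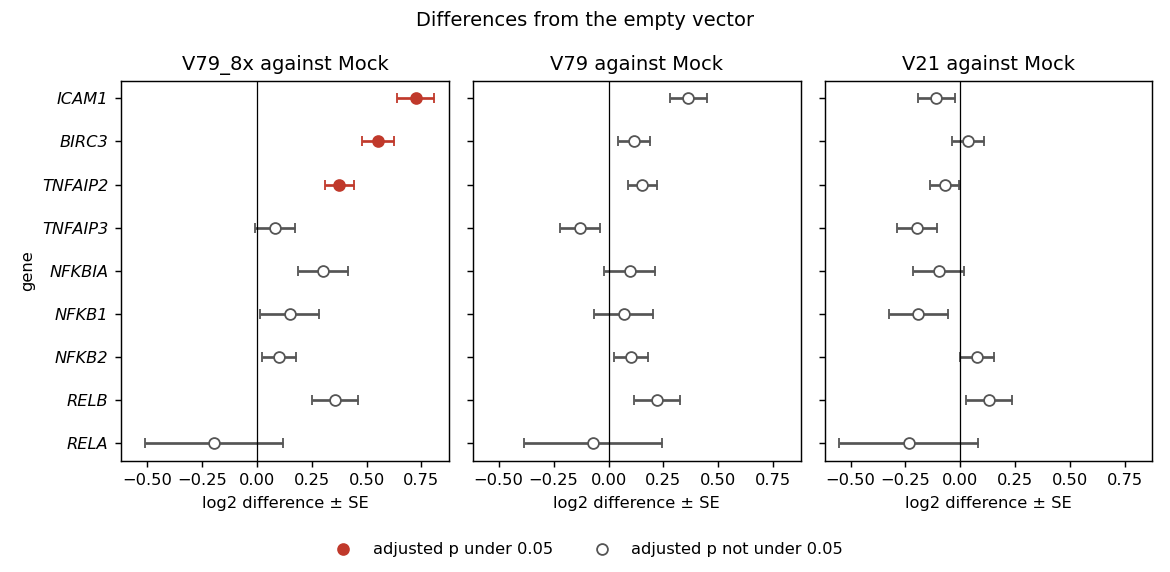
Log2 difference from Mock with its standard error (limma, 6 arrays a group) for the 9 genes in V79_8x, V79 and V21, with filled points where the adjusted p was under 0.05. The filled points are ICAM1, BIRC3 and TNFAIP2 in V79_8x, and the ICAM1 difference in V79 of 0.36 is open.

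None of the 4 subunit genes, NFKB1, NFKB2, RELB and RELA, passed limma's test in any of the 6 comparisons. At an unadjusted p under 0.05 there were 2 of 7 tested genes of the set for V79_8x against V79, where 5.5% of all tested genes were, 1 of 7 for V79 against V21 (3.82% of all) and 5 of 7 for V79_8x against V21 (19.4% of all). Against Mock, where all 9 genes were tested, the counts were 5 for V79_8x (8.84% of all), 3 for V79 (2.7%) and 1 for V21 (3.23%). After adjustment 0 of 7 passed for V79_8x against V79, where 1.02% of all tested genes rose, and 0 of 7 for V79 against V21, where 0.00665% rose. For V79 against Mock 0 of 9 passed, and for V21 against Mock 0 of 9, where 0% of all genes rose, 0 fell and 486 had an unadjusted p under 0.05. None of the 9 genes was without overlap between V21 and Mock, while 0.0133% of tested genes were separate and higher in V21.

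RELB encodes the DNA-binding partner of p52 in the second branch, and its own gene is an NF-kB target. The RELB level ranged between 13.25 and 13.38 in V79_8x, with a median of 13.31. It lay between 12.84 and 13.33 in V79 (median 13.24), between 12.83 and 13.35 in V21 (median 13.10) and between 12.56 and 13.30 in Mock (median 13). The V79_8x arrays were the most tightly grouped, with an SD of 0.05, against 0.18 in V79, 0.19 in V21 and 0.25 in Mock, and Mock B overlapped them. RELB was higher in V79_8x than in Mock by 0.36 ± 0.10 in 5 of 6 experiments and did not pass (limma adjusted p = 0.085).

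The RELB difference was close to the threshold and turned on single arrays. It passed without Mock B or without V79 B, had an adjusted p of 0.25 without Mock D, and passed without all 4 arrays that stand apart (0.28, adjusted p = 0.0361). Against V79 it was 0.14 ± 0.10 (adjusted p = 0.98) and against V21 0.23 ± 0.10 (adjusted p = 0.24).

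NFKB1 encodes p105, the precursor of p50, and is itself a target of the pathway. The NFKB1 level ranged between 10.41 and 10.63 in V79_8x (median 10.56), between 10.12 and 10.60 in V79 (median 10.51), between 9.56 and 10.58 in V21 (median 10.31) and between 9.99 and 10.60 in Mock (median 10.41). The groups overlapped, and the 4 lowest of the 24 arrays were the 4 that stand apart. V79_8x exceeded V21 by 0.34 ± 0.13 in 4 of 6 experiments (limma adjusted p = 0.177) and Mock by 0.15 ± 0.13 in 5 of 6 (adjusted p = 0.911). Its 10 features agree within narrow bounds, from 0.34 to 0.38 for the first difference and from 0.14 to 0.20 for the second.

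NFKB2 encodes p100, which holds RELB inactive until it is cut to p52. The NFKB2 level ranged between 8.32 and 8.75 in V79_8x (median 8.41), between 8.40 and 8.58 in V79 (median 8.50), between 8.28 and 8.59 in V21 (median 8.51) and between 8.27 and 8.47 in Mock (median 8.43). V79_8x B and F, at 8.75 and 8.73, lay above all other arrays, and the remaining 4 V79_8x arrays lay within the range of the other groups. The differences in V79_8x were 0.10 ± 0.08 against Mock (limma adjusted p = 0.882), less than 0.01 in size against V79 (adjusted p = 0.995) and 0.02 ± 0.08 against V21 (adjusted p = 0.869).

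**Figure D3:**
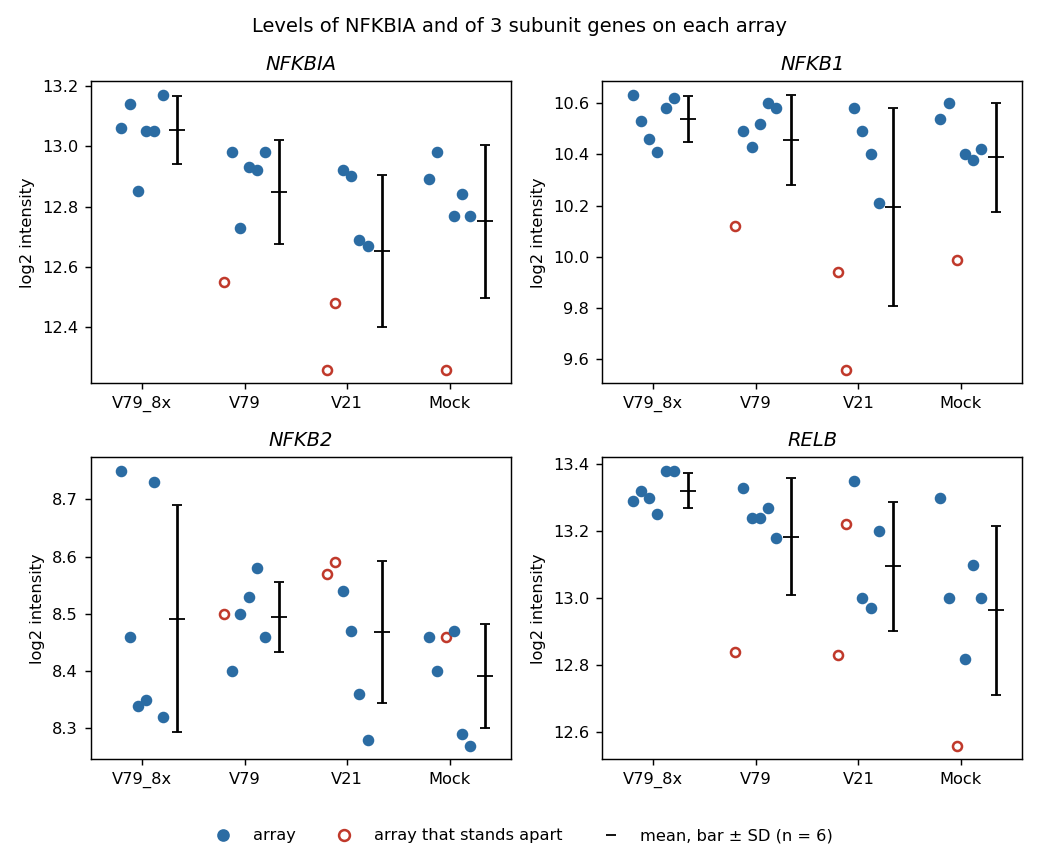
Levels of NFKBIA, NFKB1, NFKB2 and RELB (log2 intensity) on each array of V79_8x, V79, V21 and Mock, with the mean and SD of 6 arrays as bars and open circles for the 4 arrays that stand apart. The open circles are the lowest of their groups in NFKB1 and NFKBIA and not in NFKB2.

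RELA encodes p65, the subunit that carries the main activation domain. The brightest RELA feature ranged between 10.62 and 10.87 in V79_8x (median 10.83), between 10.51 and 11.79 in V79 (median 10.79), between 9.66 and 12.13 in V21 (median 10.73) and between 10.49 and 12.42 in Mock (median 10.78). The medians lie within 0.11 of each other, whereas V79, V21 and Mock each hold 1 array above 11. V79_8x was lower than Mock by 0.20 ± 0.32 (log2 difference -0.20, limma adjusted p = 0.973).

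The extreme RELA values were on the 4 arrays that stand apart. The 10 brighter RELA features averaged 11.72 on V79 B, 12.11 on V21 B and 12.41 on Mock D, and 9.56 on V21 C, while on the other 20 arrays they averaged 10.25 to 10.77. The 11th and dimmest feature was low on all 4 of them, at 8.92 on V79 B, 8.86 on V21 B, 8.71 on V21 C and 9.0 on Mock D. On the other 20 arrays it lay between 9.09 and 9.78. The 2 kinds of RELA feature thus moved in opposite directions on V79 B, V21 B and Mock D. With the dimmest feature in place of the brightest, V79_8x was above Mock by 0.12 and above V21 by 0.33.

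On the same 4 arrays other genes of the set were lower than on the rest of their group. The median deviation of the 10 NFKB1 features was -0.45 on V79 B, -0.52 on V21 B, -0.80 on V21 C and -0.45 on Mock D. That of the 10 NFKBIA features was -0.37, -0.50, -0.26 and -0.54 on the same arrays in the same order. RELB was lower on V79 B, V21 B and Mock D, by 0.41, 0.30 and 0.48 on the log2 scale, and not on V21 C (0.09). TNFAIP3 was lower on all 4, by 0.22 on V79 B and V21 B, 0.41 on V21 C and 0.27 on Mock D. BIRC3 was lower by 0.22 on V79 B and by 0.29 on V21 B and Mock D. NFKB2 was not lower on any of them (0.01 to 0.18). TNFAIP2 was lower by 0.03 on V79 B, 0.25 on V21 B, 0.23 on V21 C and 0.20 on Mock D. The median deviation of the 10 ICAM1 features was -0.41 on V21 C, and on V79 B, V21 B and Mock D it was 0.19, less than 0.01 in size and 0.05. The V79_8x group holds none of these arrays.

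**Figure D4:**
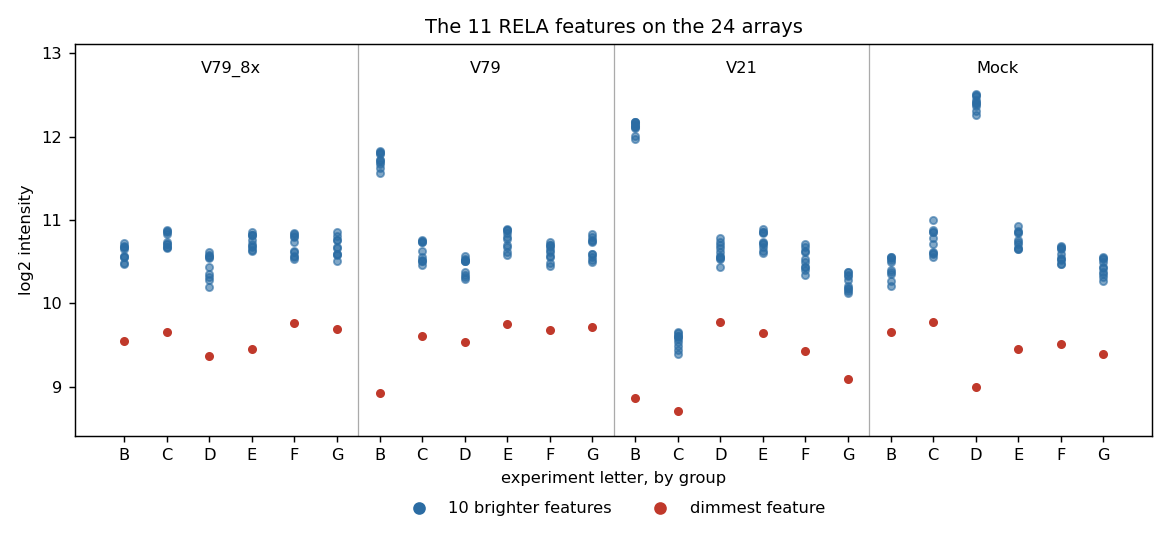
Levels of the 11 RELA features (log2 intensity) on the 24 arrays, by group and experiment letter, with the dimmest feature in red. The 10 brighter features average 11.72 on V79 B, 12.11 on V21 B and 12.41 on Mock D, where the dimmest feature is low.

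Without those 4 arrays the 3 genes that rose in V79_8x against Mock kept their calls. The difference was 0.71 for ICAM1 (limma adjusted p = 1.11e-06), 0.50 for BIRC3 (adjusted p = 1.61e-06) and 0.34 for TNFAIP2 (adjusted p = 0.000426), and TNFAIP2 exceeded V21 by 0.37 (adjusted p = 0.000405). The steps of ICAM1 were then 0.39 between V79_8x and V79 and 0.36 between V79 and V21, and V79 exceeded Mock by 0.32 (adjusted p = 0.466). Leaving out any single array kept the same 3 calls, with adjusted p up to 1.11e-05 for ICAM1, 7.6e-05 for BIRC3 and 0.00385 for TNFAIP2.

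Over the 9 genes, the median log2 difference in V79_8x was 0.30 against Mock, 0.21 against V79 and 0.34 against V21, while over all tested genes it was 0.01, 0.01 and 0.03. In V79 the median over the 9 genes was 0.10 against Mock and 0.16 against V21, and in V21 it was -0.10 against Mock. The comparisons share groups, and the 9 genes were chosen with 2 of them known to be high in V79_8x, so these medians describe the set and do not test it.

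Genes elsewhere in the pathway mostly did not pass in V79_8x against Mock, where 1.71% of all tested genes rose. The 4 lists of receptors and ligands, adaptors and kinases, other subunits and inhibitors, and other target genes held 111 distinct genes, some of them in more than 1 list, and 85 were tested. Of 13 tested receptors and ligands 2 rose and 0 fell: TLR3, the endosomal receptor for double-stranded RNA, by 0.74 ± 0.10 (limma adjusted p = 1.36e-05), and TLR2, a surface receptor for bacterial lipopeptides, by 0.49 ± 0.11 (adjusted p = 0.0133). TLR3 averaged 7.78 ± 0.14 in V79_8x and 7.04 ± 0.16 in Mock, and TLR2 8.63 ± 0.15 in V79_8x and 8.14 ± 0.29 in Mock (SD, n = 6). The list's median difference was 0.03.

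Of 28 tested adaptors and kinases 2 rose and 0 fell. RNF31, the catalytic subunit of the linear ubiquitin ligase at TNF receptors, was higher by 0.37 ± 0.07 (limma adjusted p = 0.000917). TRADD, the adaptor of TNF receptor 1, was higher by 0.29 ± 0.07 (adjusted p = 0.0305), and it lost its call without any 1 of 8 single arrays, with an adjusted p up to 0.0926 without V79_8x B. The other 26 genes, IKBKB of the IKK complex among them, did not pass, and the median of the list was 0.10. Among the 19 other subunits and inhibitors 0 passed and the median was 0.06. Their smallest p was that of TNIP1, a partner of A20, at 0.21 ± 0.08 (adjusted p = 0.253).

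Among the other target genes CXCL10, a chemokine gene, passed the filter through V79_8x alone, where it averaged 7.45, against 6.13 in V79, 6.13 in V21 and 6.10 in Mock, below the dim limit. It is given as values, with no test. Of the other 30 tested genes 4 rose in V79_8x against Mock and 0 fell. TAP1, which carries peptides to MHC class I, was higher by 2.34 ± 0.11 (limma adjusted p = 1.25e-13) and PSMB9, a subunit of the immunoproteasome, by 2.25 ± 0.13 (adjusted p = 4.74e-12). The remaining pair, IRF1 and GADD45B, named after their values were seen, was higher by 0.52 each (adjusted p = 0.000113 and 0.00999). TAP1, PSMB9, CXCL10 and IRF1 are known targets of interferon signalling too. The median of the 30 genes was 0.13, and 26 did not pass.

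**Figure D5:**
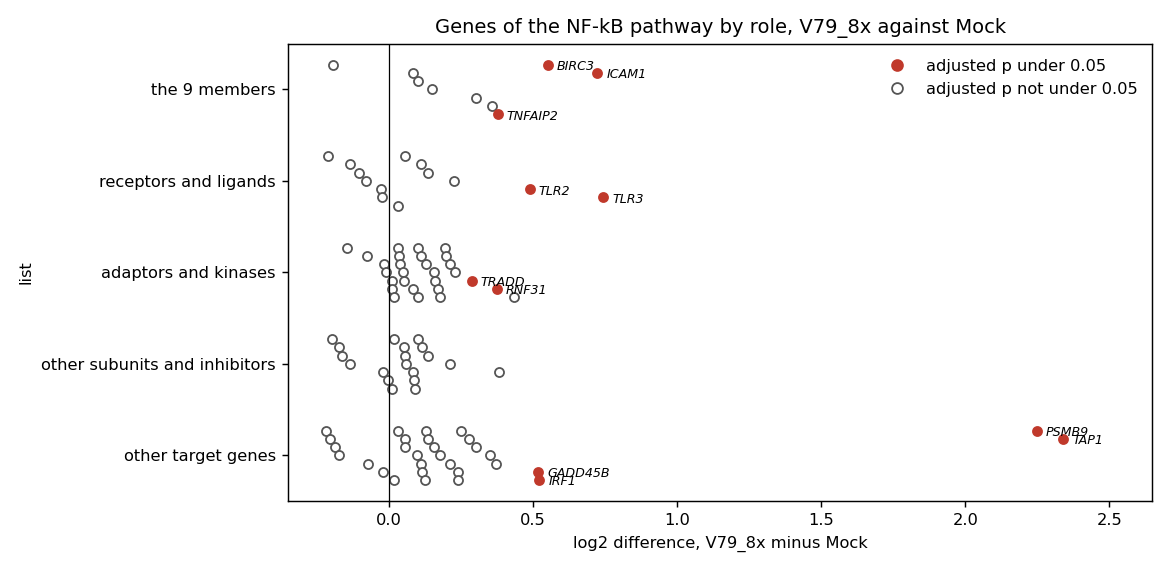
Log2 difference of V79_8x minus Mock for the 9 genes and for the tested genes of 4 other lists of the NF-kB pathway, by role, with filled and named points where the limma adjusted p was under 0.05. CXCL10 is left out. TAP1 at 2.34 and PSMB9 at 2.25 lie farthest right, and ICAM1 at 0.72 is the highest of the 9.

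Against V79, 1 of the 13 receptors and ligands rose in V79_8x (TLR3, by 0.78, limma adjusted p = 7.38e-06), 0 of 28 adaptors and kinases, 0 of 19 other subunits and inhibitors and 4 of 30 other targets. These were the same 4 target genes, with TAP1 higher by 2.19 and PSMB9 by 2.12. Of all tested genes 1.02% rose in that comparison. GADD45B lost its call there without any 1 of 14 single arrays (adjusted p = 0.0445, up to 0.144 without V79_8x B) and with the experiment letter as a replicate block (adjusted p = 0.0511). Of all tested genes 2.19% rose in V79_8x against V21. Of the lists, in the same order, 2 of 13, 4 of 28, 0 of 19 and 6 of 30 rose there. They included MYD88, the adaptor of most Toll-like receptors, by 0.75 ± 0.15 (adjusted p = 0.00394). Beyond the naming rule stated with the methods, TICAM1, SELE and FAS also rose there, and each lost its call without any 1 of 16, 17 and 7 single arrays, while TLR2 lost it without any 1 of 5. Without the 4 arrays that stand apart, TICAM1 (limma adjusted p = 0.0626), TRADD (0.0587), SELE (0.103) and FAS (0.0839) did not pass, and SELE did not with the replicate block (0.0703).

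In V79 against Mock, V79 against V21 and V21 against Mock, 0 genes of these 4 lists passed in either direction. Of all 15045 tested genes 1, 1 and 0 passed there, in the same order, so the count of 0 is not particular to these lists.

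Interferon-stimulated genes moved with the same group. Of 17 tested, 16 rose in V79_8x against Mock, with a list median of 3.28, and 16 rose against V79, with a median of 3.04. The mean level of the 18 such genes with a feature lay between 11.08 and 11.64 on the V79_8x arrays. It lay between 8.27 and 8.72 in V79, between 8.09 and 8.39 in V21 and between 8.26 and 8.63 in Mock. V79_8x thus stood apart from the 3 other groups in this list, as it did in BIRC3, whereas the ICAM1 levels of V79 and Mock did not overlap on arrays where the list's did. Of 15 tested replication-dependent histone genes, 2 fell in V79_8x against Mock (H4C8 and H4C3) with a list median of -0.31, 1 fell against V79, and 4 fell and 1 rose against V21. Their mean level was 12.78 in V79_8x, 12.99 in V79, 13.19 in V21 and 13.13 in Mock. Of all 15045 tested genes, 331 passed in either direction in V79_8x against Mock, 173 against V79 and 431 against V21. The part of either list in the levels of ICAM1, BIRC3 and TNFAIP2 was not tested.

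The genes most like ICAM1 and BIRC3 over the 24 arrays were found by Pearson's r of the log2 levels, which the 4 groups share, and r over deviations from the group means is given beside it. For ICAM1 they were TRADD (r = 0.92, 0.90 over deviations), SERPINA3 (0.91, 0.35), SEMA5A (0.91, 0.59), SIDT2 (0.90, 0.77) and HLA-G (0.90, 0.58). For BIRC3 they were LAMP3 (r = 0.94, 0.71 over deviations), HERC5 (0.93, 0.63), CACNG7 (0.93, 0.70), TAP2 (0.92, 0.64) and LMO2 (0.92, 0.73). TRADD kept the ICAM1 pattern within groups, while SERPINA3 shared mainly the steps between groups, with means of 8.15 in V79_8x, 7.85 in V79, 7.29 in V21 and 7.26 in Mock. LAMP3 had the single step of BIRC3, with 8.76 in V79_8x, 7.75 in V79, 7.67 in V21 and 7.67 in Mock. Each r is a description of these arrays.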

How the data were processed

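Total RNA (100 ng) was made into Cy3-labelled cRNA for Agilent arrays of 1 colour, per the labels' protocols. The authors deposited 1 table of normalised log2 intensities for 24 arrays. How background was corrected and arrays were normalised is not stated in these sources. Any 2 arrays differed by at most 0.01 once sorted, and all array medians were 6.7, so that a change common to most genes is not visible. Of the features, 37051 were named through the platform annotation and RefSeq and 25925 were unnamed.

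The gene level was the brightest feature by mean over all arrays, and the dimmest 25% of genes were left out. Groups were compared with limma 3.58.1 (lmFit, eBayes, R 4.3.3, statmod 1.5.0) in 1 fit without covariates, with two-sided p adjusted by Benjamini-Hochberg and a threshold of 0.05; the procedure was tested on simulated data. Each log2 difference is given ± its standard error (median over genes 0.098), and the number of arrays limits the precision. The 9 genes, the lists and the tests were chosen with earlier results of these data known. All 9 genes were named, and of each list up to 3 called genes, by largest change, or else the 1 with the smallest p. Alternatives were the experiment letter or the first number of the array name as a block, other filters, features and weights, and left-out arrays. The experiment letter is shared by 1 array of each group. Deviations of the same letter correlated at over 0.1 in 6 of 6 pairs between V79_8x and Mock (0.182 to 0.570). In the other comparisons 1 to 3 of 6 did so, and the lowest correlation was -0.658, for V21 against Mock. The own letter gave the highest correlation in 0 to 3 of 6 pairs. Counts of experiments thus compare arrays of 1 letter and do not show matched cultures. Where groups did not overlap, 6 of 6 follows from that.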

Additional observations from a re-analysis of the deposited data

Results flagged for a closer look

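In 36 groups of 6 arrays (9 genes in 4 groups), 8 held an array whose distance to its nearest neighbour took up more of the group's range than the 95% limit of Dixon's test allows, and chance gives about 1 in 20. This share of the range was 0.6458 for ICAM1 on V79_8x B, at 11.58 with the next array at 11.27. It was 0.6939 for RELB, 0.6458 for NFKB1 and 0.7031 for RELA on V79 B. On Mock D it was 0.6571 for BIRC3, 0.7083 for NFKBIA, 0.6393 for NFKB1 and 0.7979 for RELA. V21 B and V21 C, which are among the arrays that stand apart, exceeded the limit for no gene. V79_8x B, which exceeded it for ICAM1, is not among them. On V79 B and Mock D the RELA level was the highest of its group, and the other genes listed for these 2 arrays were the lowest of theirs. The 9 genes share their arrays, so the 36 groups are not independent, and 8 of 36 beside 1 in 20 is no test of an excess. The cause was not tested.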

How the results depend on the processing

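No difference of the 9 genes that passed the test lost its call or changed sign under the alternatives run, and the gains were as follows. For V79_8x against V79, 1 of the 7 tested genes passed with array weights and 1 without the 4 arrays that stand apart, in place of 0. For V79_8x against V21 the count was 2 in place of 1 with the experiment letter as a replicate block (TNFAIP3, adjusted p = 0.0263), with the mean of all features (NFKBIA, 0.0317), with array weights (NFKBIA, 0.0198) and with each array shifted to its median (NFKBIA, 0.0487), and it ranged from 1 to 2 with each array left out. For V79_8x against Mock, 5 passed with array weights in place of 3, adding NFKBIA (adjusted p = 0.0117) and RELB (0.00344). For V79 against Mock, 1 passed with array weights (ICAM1, 0.37, adjusted p = 0.00651) in place of 0. Over the whole table, genes called for V79_8x against Mock were 1045 with array weights and 597 without the 4 arrays, in place of 331. For V79_8x against V79 they were 461 and 274 in place of 173, and for V79_8x against V21 243 with only these 2 groups in the fit and 728 without V21 E, in place of 431. For V79 against Mock they were 3 with array weights in place of 1. The replicate block changed no other call of the 9 genes. Without the dimmest 50% of genes, BIRC3 and TNFAIP3 had no value. Within the arrays whose names share the first end number (1 or 2), the ICAM1 difference of V79_8x from V79 was 0.34 and 0.38, and that from Mock 0.62 and 0.83. Detection flags and background signals were not used here, so that the size of a difference near the dim limit is uncertain.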
